A study of Mus musculus with 6 samples.

Results

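Genes of megakaryocytes and platelets were followed in RNA-seq libraries from the bone marrow of mice carrying MLL-AF9 leukemia. The 9 genes were chosen by name: Pf4, Ppbp, Itga2b, Itgb3, Gp1ba, Gp1bb, Gp9, Gp6 and Vwf. All 9 were among the 55487 genes of the deposited table, and 8 of the 9 were among the 15020 genes tested. The exception was Gp1bb, whose mean was below the filter on low values.

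The study examined whether established MLL-AF9 leukemia depends on Brd9, which encodes a subunit of the non-canonical BAF chromatin remodeling complex. Leukemia cells came from a CD45.2(+) Mx1-Cre Brd9fl/fl donor carrying MA9 (MLL-AF9), on the C57BL/6 strain, and 1000 of them were transplanted into each CD45.1(+) CD45.2(-) recipient after irradiation. The 3 PBS libraries came from recipients given 3 doses of PBS, and the 3 pIpC libraries from recipients given 3 doses of pIpC (polyinosinic-polycytidylic acid) at 20 mg/kg, both collected 10 days after injection. Cre, the floxed alleles and MLL-AF9 were shared by both groups. The Mx1 promoter that drives Cre responds to interferon, which pIpC induces, so pIpC exposure and Brd9 deletion cannot be told apart in this design. The recipients were 6 weeks old. The labels give the cells as GFP+, GFP being the marker of the MLL-AF9 vector, whereas the methods give a c-Kit+ selection. Whether the 3 libraries of a group came from separate animals was not given in the sources used here. The p-values therefore measure only the spread between these libraries, which may be technical.

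Megakaryocytes are large polyploid cells of the bone marrow that shed platelets into the blood. They share a progenitor with the erythroid lineage, and transcription factors of the GATA, ETS and RUNX families, with NFE2 for late maturation, act in their development. Platelets carry receptors for von Willebrand factor, fibrinogen and collagen on their surface, and store chemokines and adhesion proteins in their alpha granules.

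Recovered reads on genes ranged from 19277439 to 22378154 in the PBS libraries and from 22348517 to 23586722 in the pIpC libraries. The normalized count of Brd9, the targeted gene, was 1927, 1946 and 1632 across PBS replicates 1 to 3 and 2036, 2263 and 2011 across pIpC replicates 1 to 3, a log2 change of 0.20 (standard error 0.13, limma adjusted p = 0.259). This count covers the whole gene, whereas the floxed part is exons 4 to 6, so it does not check the deletion, and directions below refer to the libraries labelled pIpC. Hoxa9, Hoxa10 and Meis1, homeobox genes that MLL-AF9 keeps active, were lower in the libraries labelled pIpC, with log2 changes of -4.32, -6.38 and -4.01. Mef2c and Ptprc, the other genes of the leukemia and leukocyte list, were higher, at 7.72 and 1.02. Mef2c passed the filter only through the libraries labelled pIpC and so had to be higher. The chi-square statistic per gene between replicates was 191 and 216 for the pairs with PBS replicate 3 and at most 18.5 for other pairs, and member values without this library are given with each result below. Of all genes tested, 3750 were higher and 3058 lower, and quantile normalization turned this split to 3244 higher and 4078 lower with a median of -0.12.

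Of the 8 tested members, 8 were higher in the libraries labelled pIpC and 0 were lower, at a limma adjusted p under 0.1. Over all genes tested, 25.0% were called higher and 20.4% lower, shares to be read beside each list count below. These shares include genes that passed the filter only through the libraries labelled pIpC. Of the 13807 tested genes with a PBS mean of at least 10, 5722 were called either way. In each of the 8, all 3 libraries labelled pIpC lay above all 3 PBS libraries, an order found in 30.5% of all genes tested. Of these 8, Pf4, Ppbp and Gp6 passed the filter on low values only through the libraries labelled pIpC and so had to differ. The other 5, Itga2b, Itgb3, Gp1ba, Gp9 and Vwf, had a PBS mean of at least 10 normalized counts, and their log2 changes had a median of 1.496, beside a median of -0.06 over the 13807 tested genes with such a PBS mean. In bulk RNA, fewer cells of a type and less RNA per cell cannot be told apart. The exact permutation test over 3 against 3 libraries cannot give a 2-sided p below 0.1, and it gave 0.1 for each of the 8.

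**Figure D1:**
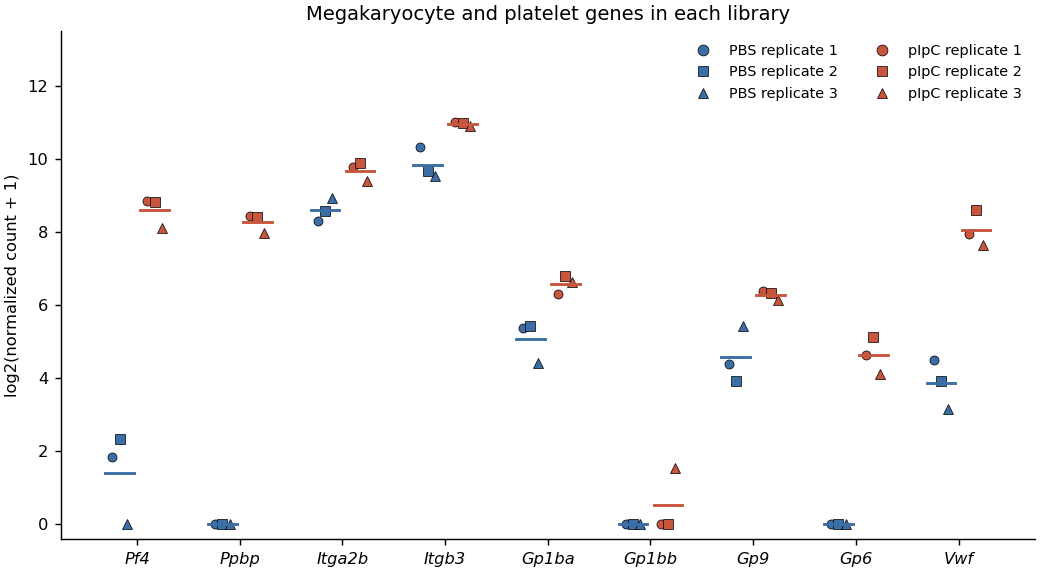
The plot shows log2(normalized count + 1) of each of the 9 genes in every library, with blue for PBS, red for pIpC, a marker shape for each replicate number and a bar for the group mean. Ppbp and Gp6 were at 0 in all PBS libraries, Itga2b and Itgb3 were high in both groups, and Gp1bb was at 0 in all but pIpC replicate 3.

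RefSeq promoters (build GRCm38.p6) were matched by symbol for 7 of the 9 genes: Pf4, Ppbp, Itga2b, Gp1ba, Gp1bb, Gp9 and Gp6. Below are the 250 bases before the start of the 5 genes whose window holds no annotated exon, shown because these genes were higher together. They read 5′ to 3′ on the gene's strand, and capitals mark matches to a GATA motif on either strand (the letters AGATAA, the letters AGATAG, the letters TGATAA, or the letters TGATAG) or to an ETS motif (the letters AGGAAG or the letters CGGAAG), with no overlap between matches.
Pf4 (chr5:90772185-90772434, plus strand): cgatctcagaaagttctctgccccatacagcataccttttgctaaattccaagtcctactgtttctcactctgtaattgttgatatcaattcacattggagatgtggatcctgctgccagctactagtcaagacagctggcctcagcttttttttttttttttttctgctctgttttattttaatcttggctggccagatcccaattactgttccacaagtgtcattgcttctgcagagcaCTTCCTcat
Ppbp (chr5:90768268-90768517, plus strand): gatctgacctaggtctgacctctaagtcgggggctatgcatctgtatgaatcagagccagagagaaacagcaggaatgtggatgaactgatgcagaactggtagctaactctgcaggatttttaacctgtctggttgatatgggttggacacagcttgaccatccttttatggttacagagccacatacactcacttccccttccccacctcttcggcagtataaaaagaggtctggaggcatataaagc
Gp1ba (chr11:70638872-70639121, plus strand): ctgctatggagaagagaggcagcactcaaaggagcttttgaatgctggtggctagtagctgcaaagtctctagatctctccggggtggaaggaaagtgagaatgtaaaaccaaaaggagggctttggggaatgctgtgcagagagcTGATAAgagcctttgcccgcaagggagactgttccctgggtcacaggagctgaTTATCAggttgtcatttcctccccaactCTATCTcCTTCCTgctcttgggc
Gp9 (chr6:87777820-87778069, plus strand): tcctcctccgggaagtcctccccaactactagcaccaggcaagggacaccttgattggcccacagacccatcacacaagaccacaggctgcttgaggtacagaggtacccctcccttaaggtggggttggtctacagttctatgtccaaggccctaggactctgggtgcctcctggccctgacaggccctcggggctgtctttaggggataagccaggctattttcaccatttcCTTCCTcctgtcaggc
Gp6 (chr7:4397745-4397994, minus strand): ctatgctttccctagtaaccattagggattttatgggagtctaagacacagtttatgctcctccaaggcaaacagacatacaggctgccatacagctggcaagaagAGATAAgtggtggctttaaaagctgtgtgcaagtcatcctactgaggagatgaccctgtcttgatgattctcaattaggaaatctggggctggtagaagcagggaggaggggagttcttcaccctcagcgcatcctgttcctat

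Gp1ba held 3 GATA matches, at 104, 51 and 23 bases before its start (first base of each), and 1 ETS match. Gp6 held 1 GATA match and no ETS match, Pf4 and Gp9 held 1 ETS match each, and Ppbp held neither. The window of Itga2b, of which 180 bases lie in an annotated exon of that gene, held 2 ETS matches. That of Gp1bb, which lies wholly in an exon of Sept5, held 1 match of each motif. In all, 3 of 7 windows held a GATA match and 5 of 7 an ETS match, beside 26.5% and 39.2% of 32851 RefSeq promoter windows of the same length. Both motifs stood in 2 of 7 windows and in 9.21% of all windows. A match describes letters only.

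The chemokine genes Pf4 and Ppbp, whose products are packed into platelet alpha granules, showed the highest log2 changes of the members in the limma fit. With edgeR the change of Gp6, which had no PBS read, was 7.63 and that of Pf4 was 7.35. Pf4 and Ppbp lie side by side on the plus strand of chromosome 5 (GRCm38), Ppbp (ENSMUSG00000029372) from 90768518 to 90770063 and Pf4 (ENSMUSG00000029373) from 90772435 to 90773383. Pf4 encodes platelet factor 4 and is a common marker of the megakaryocyte lineage. Its normalized count was 2.60, 4.05 and 0 across PBS replicates 1 to 3, and 461, 457 and 277 across pIpC replicates 1 to 3. The PBS libraries held 7 Pf4 reads in all and the libraries labelled pIpC 1195, so the groups were far apart. The ratio of these reads, once scaled for depth, was 171 (95% exact interval 82.9 to 427, for counting error only). The log2 change of the normalized count + 1 was 7.21 (standard error 0.63, limma adjusted p = 0.000218). Without PBS replicate 3, in which Pf4 had no read, this change was 6.51.

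Ppbp, which encodes the precursor of several platelet chemokines including NAP-2, had no read in any PBS library. Its normalized count was 345, 342 and 250.5 across pIpC replicates 1 to 3, or 313 ± 53.9 (SD, n = 3) from 940 reads. Against a floor of 3 reads per PBS library, Ppbp was at least 104-fold higher in the libraries labelled pIpC. The limma log2 change was 8.28 (standard error 0.30, adjusted p = 1.68e-05), a value set by the pseudocount of 1, and also 8.28 without PBS replicate 3. Of the 5 other CXC chemokine genes listed from this cluster, 1 passed the filter. Cxcl5, on the other side of Ppbp from 90759360 to 90761624, was below the filter, with 0 reads in the PBS libraries and normalized counts of 6.99, 5.11 and 5.80 across pIpC replicates 1 to 3, at least 1.98-fold higher. Cxcl2, a neutrophil chemokine and the neighbour that passed, fell from a mean of 130.2 ± 52.9 to 64.5 ± 9.003 (SD, n = 3), with a log2 change of -0.94 (limma adjusted p = 0.0623). That call was lost without PBS replicate 2 (-0.63, limma adjusted p = 0.139) and without pIpC replicate 1, 2 or 3 (-0.99, -1.005 and -0.82). Cxcl1, Cxcl3 and Cxcl15 had at most 5 reads in a group.

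Itga2b and Itgb3 encode the subunits of the fibrinogen receptor, the integrin alpha IIb beta 3, through which activated platelets aggregate. Unlike the chemokines, both were already well counted in the PBS libraries. Itga2b (ENSMUSG00000034664, chromosome 11, minus strand, 102453297 to 102470122), also known as CD41, had normalized counts of 314, 383 and 492 across PBS replicates 1 to 3 and 872, 943 and 679 across pIpC replicates 1 to 3. The groups did not overlap, and PBS replicate 3 was the closest PBS library to the pIpC ones. The mean rose 2.10-fold, a log2 change of 1.08 (standard error 0.21, limma adjusted p = 0.00811), and 1.25 without PBS replicate 3. Itgb3 (ENSMUSG00000020689, chromosome 11, plus strand, 104608000 to 104670476) had normalized counts of 1279, 819.9 and 746 across PBS replicates 1 to 3 and 2063, 2036 and 1922 across pIpC replicates 1 to 3. Its pIpC libraries were close to each other, while PBS replicate 1 stood above the other PBS libraries. The mean rose 2.12-fold, a log2 change of 1.12 (standard error 0.21, limma adjusted p = 0.0065), and 0.97 without PBS replicate 3.

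Integrin beta 3 also pairs with integrin alpha v, encoded by Itgav, in macrophages and osteoclasts. The normalized count of Itgav was 767, 655 and 567 across PBS replicates 1 to 3 and 737, 745 and 756 across pIpC replicates 1 to 3. The groups overlapped, and its log2 change of 0.18 (95% interval -0.17 to 0.53, limma adjusted p = 0.374) did not pass. Per kb of exon, the level of Itgb3 over that of Itga2b was 3.76, 1.98 and 1.40 across PBS replicates 1 to 3 and 2.19, 1.996 and 2.62 across pIpC replicates 1 to 3. These ratios overlapped between groups (exact permutation test, 2-sided p = 0.9). The level of Itga2b over that of Itgav was 0.81, 1.15 and 1.71 in PBS and 2.33, 2.49 and 1.77 in pIpC, with no overlap (exact permutation test, 2-sided p = 0.1, the smallest possible). Of 13 macrophage and osteoclast markers, 10 were tested, 5 were higher and 3 lower, beside 25.0% and 20.4% of all genes tested. Of the 9 with a PBS mean of at least 10, 4 were higher and 3 lower, with a median log2 change of 0.09. The summed normalized count of the 13 was 12591 to 16456 in PBS libraries and 7861 to 9432 in pIpC libraries. Vcam1 (mean 8421 in PBS and 4444 in pIpC) and Adgre1 (4307 and 310) were the largest parts of the PBS sum. The 5 higher genes were C1qa, C1qb, Mrc1, Cd5l and Siglec1, so the sum does not give their direction. The highest change was that of Siglec1, a macrophage sialoadhesin, at 4.81, and the lowest that of Adgre1, which encodes F4/80, at -3.80. Siglec1, with a PBS mean of 5.67, passed the filter only through the libraries labelled pIpC and so had to be higher. The osteoclast genes Calcr, Dcstamp and Ocstamp had at most 6 reads in a group. The part of these cells in the Itgb3 result was not tested.

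The GPIb-IX-V complex is the platelet receptor for von Willebrand factor, built from the products of Gp1ba, Gp1bb, Gp9 and Gp5. Gp1ba (ENSMUSG00000050675, chromosome 11, plus strand, 70639122 to 70642036), which encodes the ligand-binding chain, had normalized counts of 40.7, 42.5 and 20.4 across PBS replicates 1 to 3 and 78.8, 109 and 97.7 across pIpC replicates 1 to 3. All pIpC values lay above all PBS values, with PBS replicate 3 the lowest. The mean rose 2.76-fold, from 34.5 ± 12.3 to 95.3 ± 15.4 (SD, n = 3), a log2 change of 1.496 (standard error 0.34, limma adjusted p = 0.0148), and 1.16 without PBS replicate 3. Gp9 (ENSMUSG00000030054, chromosome 6, plus strand, 87778072 to 87779768), which encodes the small chain needed for surface assembly, had normalized counts of 19.9, 14.2 and 41.9 in PBS and 82.8, 79.7 and 69.6 in pIpC. Here PBS replicate 3 was the highest PBS library, opposite to Gp1ba. The mean rose 3.06-fold, a log2 change of 1.71 (standard error 0.41, limma adjusted p = 0.0173), and 2.13 without PBS replicate 3.

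Gp5, the remaining chain and not one of the 9 genes, had 1 read in the PBS libraries together and normalized counts of 73.9, 88.9 and 70.6 across pIpC replicates 1 to 3. Its reads rose from 1 to 234, a ratio of 235 once scaled for depth (95% exact interval 41.8 to 9320, for counting error only). Its log2 change was 5.93 (standard error 0.43, limma adjusted p = 0.00011). With 1 PBS read, Gp5 passed the filter only through the libraries labelled pIpC and so had to be higher. In the PBS libraries, then, Gp1ba and Gp9 were counted while Gp5 was at or near 0. Gp1bb (ENSMUSG00000050761, chromosome 16, minus strand, 18620317 to 18622403), which encodes the chain that joins GPIb alpha by disulfide bonds, had 0 reads in 5 libraries and 2 reads in pIpC replicate 3. It was not tested, and with no filter its log2 change was 0.52 (standard error 0.48, limma adjusted p = 0.505). Of its 2087 exon bases, 1938 (92.9%) are shared with exons of Sept5 and Gm49601 on the same strand, so reads from most of this gene could not be assigned to it by exon position alone. Its level is therefore uncertain rather than known to be 0. Sept5, a septin gene, was higher, 310.0 ± 36.6 in PBS and 1172 ± 106 in pIpC (SD, n = 3; log2 change 1.92, limma adjusted p = 0.000135), as was Gm49601, 39.6 ± 10.9 and 229 ± 41.2 (SD, n = 3; log2 change 2.53, limma adjusted p = 0.000698). Both share most of their own exon bases with neighbours and are uncertain in the same way.

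Gp6 (ENSMUSG00000078810, chromosome 7, minus strand, 4363965 to 4397744) encodes glycoprotein VI, the platelet collagen receptor. It had no read in any PBS library and normalized counts of 24.0, 33.7 and 16.4 across pIpC replicates 1 to 3, from 74 reads. Against the floor of 3 reads per PBS library it was at least 8.21-fold higher. The limma log2 change was 4.63 (standard error 0.44, adjusted p = 0.000306) and ranged from 1.77 with a pseudocount of 10 to 7.89 with a pseudocount of 0.1. Without PBS replicate 3 it was also 4.63. Glycoprotein VI signals through the Fc receptor gamma chain, encoded by Fcer1g, which myeloid cells also use. Fcer1g had normalized counts of 3428, 3397 and 7092 in PBS and 4645, 4898 and 5129 in pIpC, so the groups overlapped through PBS replicate 3. Its log2 change was 0.17 (95% interval -0.53 to 0.86, limma adjusted p = 0.68), and 0.52 (limma adjusted p = 0.000161) without that library, while without PBS replicate 1 or 2 it was -0.0064 or -0.013. Mast cells and basophils use Fcer1g as well. Of 9 of their markers, 7 were tested and 6 were higher, beside 25.0% of all genes tested. Of the 4 with a PBS mean of at least 10, 3 were higher. Their summed normalized count was 3152 to 5172 in PBS libraries and 10571 to 12636 in pIpC libraries. Prss34, a basophil protease, had the highest change at 10.76, and Cpa3, a mast cell carboxypeptidase, the lowest at -0.06 (limma adjusted p = 0.912), which was 0.37 without PBS replicate 3 and 0.14 without pIpC replicate 2. Prss34, with a PBS mean of 0.34, passed the filter only through the libraries labelled pIpC and so had to be higher. Of these markers, Tpsb2 was at 0 reads in all libraries. Their part in the Fcer1g and Gp6 results was not tested.

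Vwf (ENSMUSG00000001930, chromosome 6, plus strand, 125546774 to 125686679) encodes von Willebrand factor, which megakaryocytes and endothelial cells make and which binds platelets to injured vessels. Its normalized count was 21.6, 14.2 and 7.92 across PBS replicates 1 to 3 and 244.5, 386 and 201 across pIpC replicates 1 to 3. Every pIpC library was far above every PBS library, and pIpC replicate 2 was the highest. The mean rose 19.0-fold, from 14.6 ± 6.86 to 277 ± 96.8 (SD, n = 3), a log2 change of 4.21 (standard error 0.42, limma adjusted p = 0.00038), and 3.85 without PBS replicate 3. Of 14 endothelial markers, 12 were tested, 10 were higher and 0 lower at the threshold, beside 25.0% and 20.4% of all genes tested. Of the 8 with a PBS mean of at least 10, 6 were higher. Their summed normalized count was 3338 to 4832 in PBS libraries and 4652 to 5098 in pIpC libraries. Erg (mean 2179 in PBS and 2680 in pIpC) and Pecam1 (1577 and 1054) were its largest parts. The sum therefore does not show the change of the markers with lower counts. Tie1, an endothelial receptor kinase, had the highest change at 3.68, and Pecam1, which platelets and myeloid cells also carry, the lowest at -0.54 (limma adjusted p = 0.104). Pecam1 passed as lower without PBS replicate 3 (-0.73, limma adjusted p = 0.00323) and in 5 other settings. The defining genes Cdh5 and Kdr had mean normalized counts of 11.9 and 7.51 in PBS and 36.8 and 57.0 in pIpC. Cdh5 was near the threshold (limma adjusted p = 0.0931). Kdr, like Tek, Emcn and Robo4, passed the filter only through the libraries labelled pIpC and so had to be higher. With quantile normalization, 7 markers of this list were higher and 1 lower. The labels give GFP+ cells and the methods a c-Kit+ selection, and the purity of the sort was not given in the sources used here. The part of endothelial RNA in the Vwf result was not tested.

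**Figure D2:**
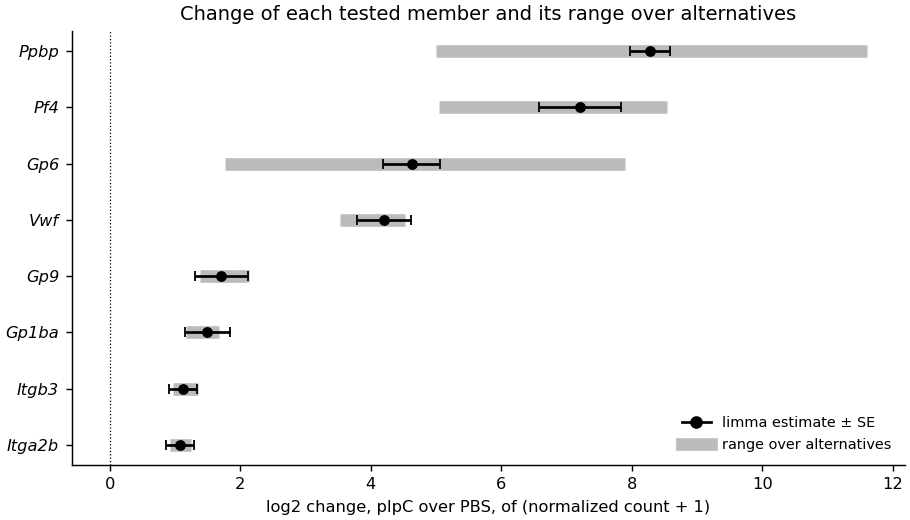
The plot shows the log2 change (pIpC over PBS) of the 8 tested members from limma with its standard error as a whisker, and as a grey bar the range over all alternatives, including edgeR and DESeq2. All 8 ranges lie above 0, with the widest bars for Ppbp, Gp6 and Pf4, which were at or near 0 in PBS.

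To compare levels between genes, the normalized count was divided by the exon length in kb (GENCODE M21). In the libraries labelled pIpC the order of this level was Pf4 at 552 ± 146 (SD, n = 3), Itgb3 at 340.1 ± 12.7, Ppbp at 289 ± 49.8, Itga2b at 152 ± 25.1, Gp9 at 87.8 ± 7.84, Gp1ba at 35.1 ± 5.66, Vwf at 17.3 ± 6.02, Gp6 at 4.19 ± 1.47 and Gp1bb at 0.31 ± 0.54. The ranges of neighbours in this order did not overlap. In the PBS libraries the order began with Itgb3 at 161 ± 48.9 (SD, n = 3), then Itga2b at 72.7 ± 16.5, Gp9 at 28.7 ± 16.6 and Gp1ba at 12.7 ± 4.52, all with ranges apart. Pf4 at 3.07 ± 2.84 and Vwf at 0.91 ± 0.43 overlapped, and Ppbp, Gp6 and Gp1bb were at 0. Pf4 thus stood at place 5 of 9 in PBS and at place 1 in pIpC. Leaving Pf4, Ppbp and Gp1bb aside, the order of the other 6 was the same in both groups. Gp5, at 35.4 per kb in pIpC, was near Gp1ba at 35.1.

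**Figure D3:**
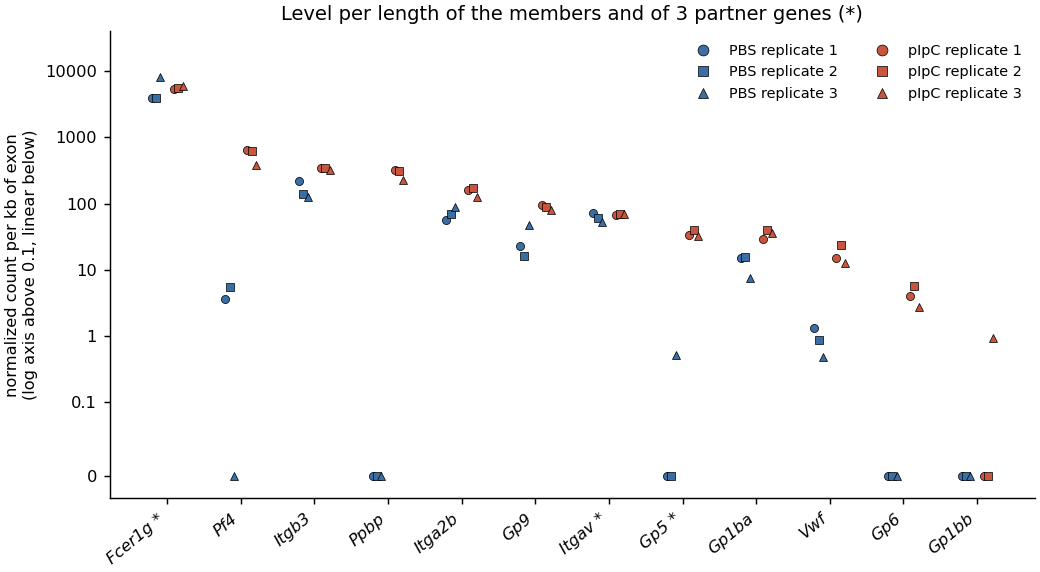
The plot shows the normalized count per kb of exon in every library for the 9 members and, marked with an asterisk, Gp5, Itgav and Fcer1g, in order of the pIpC mean. The vertical axis is logarithmic above 0.1 and linear below. Pf4 leads the members in pIpC at a mean of 552 and Itgb3 leads them in PBS at a mean of 161.

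Other platelet receptors and surface proteins were mostly higher. Of 24 listed, 22 were tested, 17 were higher, 1 was lower and 4 did not pass, with a median log2 change of 3.12, beside 0.01 over all genes tested. Of the 12 with a PBS mean of at least 10, 7 were higher and 1 was lower, with a median of 0.94. The shares over all genes tested were 25.0% and 20.4%. P2rx1, an ATP-gated channel of platelets and myeloid cells, was the one lower gene, from 1599 ± 265 to 761 ± 92.0 (SD, n = 3), a log2 change of -1.07 (limma adjusted p = 0.00291).

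Genes of platelet granules were mixed. Of 17 tested, 10 were higher, 3 lower and 4 did not pass, with a median log2 change of 2.50. Of the 12 with a PBS mean of at least 10, 5 were higher and 3 lower, with a median of 0.48. Over all genes tested, 25.0% were higher and 20.4% lower, and of the 13807 with such a PBS mean 5722 were called either way. Rab27b, a small GTPase of granule transport, had no read in PBS and was at least 34.1-fold higher in pIpC, at 103 ± 22.5 (SD, n = 3). Selp, which encodes the alpha granule adhesion protein P-selectin, rose by 5.21 on the log2 scale. Rab27b and Selp passed the filter only through the libraries labelled pIpC and so had to be higher. The 3 lower genes were Pdgfa, a growth factor gene, at -2.06, Tgfb1, another growth factor gene, at -1.23, and Srgn, the granule proteoglycan gene that myeloid cells also use, at -0.997. The call of Pdgfa was lost without pIpC replicate 1 (-1.67, limma adjusted p = 0.112) or pIpC replicate 2 (-1.85, limma adjusted p = 0.12).

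Of 14 genes of the platelet cytoskeleton and proplatelets, 9 were higher, 2 lower and 3 did not pass, with a median log2 change of 1.25. Of the 11 with a PBS mean of at least 10, 6 were higher and 2 lower, with a median of 0.52. For this list and the next, the shares over all genes tested were 25.0% higher and 20.4% lower. Actn1, an actin crosslinker, had the highest change at 6.03 and Mylk, the myosin light chain kinase gene, the lowest at -6.01. Gng11, a G protein subunit gene, was the other lower gene, at -1.42. Tubb1, the beta tubulin gene of the platelet marginal band, rose from 4 reads in PBS to 123 in pIpC. Tubb1 passed the filter only through the libraries labelled pIpC and so had to be higher. Of 15 platelet signalling and eicosanoid genes, 9 were higher, 2 lower and 4 did not pass, with a median of 0.61. Of the 14 with a PBS mean of at least 10, 8 were higher and 2 lower, with a median of 0.57. Alox12, the platelet lipoxygenase gene, had the highest change at 4.27. With a PBS mean of 2.50, Alox12 passed the filter only through the libraries labelled pIpC and so had to be higher. Tbxas1, the thromboxane synthase gene, had the lowest at -0.63, and its call was lost without pIpC replicate 1 (-0.56, limma adjusted p = 0.131) or pIpC replicate 2 (-0.66, limma adjusted p = 0.107). The other lower gene, Rasgrp2, which encodes an activator of Rap1, was at -0.35, and its call was lost without PBS replicate 2 or pIpC replicate 1, 2 or 3 (-0.40 to -0.32). Without PBS replicate 3 this list had 5 lower genes in place of 2.

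**Figure D4:**
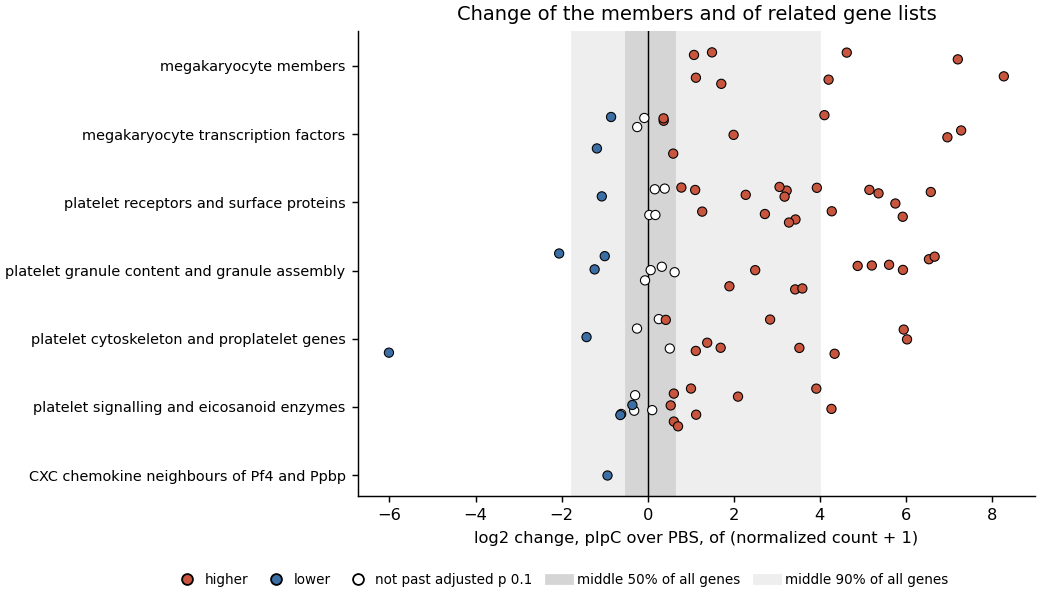
Each point is the log2 change (pIpC over PBS) of 1 tested gene, by list, filled red where higher, blue where lower and white where the limma adjusted p did not pass 0.1. The grey bands hold the middle 50% and 90% of all genes tested, from -0.51 to 0.64 and from -1.75 to 4.01, and members lie between 1.08 and 8.28.

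Transcription factors of the lineage moved in both directions. Of 11 tested, 7 were higher, 2 lower and 2 did not pass, with a median log2 change of 0.37. Of the 9 with a PBS mean of at least 10, 5 were higher and 2 lower. The shares over all genes tested were 25.0% higher and 20.4% lower. Gata1, the GATA factor of the megakaryocyte and erythroid lineages, had normalized counts of 12.98, 13.2 and 15.8 across PBS replicates 1 to 3 and 281, 206 and 291 across pIpC replicates 1 to 3. The groups were far apart, with a log2 change of 4.11 (standard error 0.24, limma adjusted p = 5.27e-05). Gata2, the GATA factor of progenitors and mast cells, went the other way, with normalized counts of 1284, 1320 and 1618 in PBS and 627, 595 and 632 in pIpC. Its log2 change was -1.18 (standard error 0.14, limma adjusted p = 0.000717). Tal1, a partner of GATA1, had the highest change at 7.29, and Gfi1b and Zfpm1, which encode a repressor and a cofactor of the same lineages, were higher by 6.97 and 1.998. Tal1 and Gfi1b, with PBS means of 3.30 and 0.67, passed the filter only through the libraries labelled pIpC and so had to be higher. Lyl1, a relative of Tal1, was lower at -0.85. Nfe2, which acts late in platelet formation, had normalized counts of 4033, 3715 and 6959 in PBS and 4545, 4377 and 4462 in pIpC. Its log2 change of -0.08 (95% interval -0.65 to 0.50, limma adjusted p = 0.824) became 0.20 (limma adjusted p = 0.0222) without PBS replicate 3. Runx1, at -0.24 (limma adjusted p = 0.179), passed as lower without that library (-0.34, limma adjusted p = 0.00132).

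Markers of related lineages were read beside the members, and beside the shares of 25.0% higher and 20.4% lower over all genes tested. Of 15 erythroid markers, 14 were measured and all 14 of these were higher, but only 2 had a PBS mean of at least 10, and the other 12 passed the filter only through the libraries labelled pIpC and so had to be higher. Their summed normalized count was 43.3 to 62.8 in PBS libraries and 5317 to 7507 in pIpC libraries. Slc4a1 and Rhag of this list had no read in PBS. Hbb-bs, a beta globin gene, had the highest change at 8.52 and Alas2, of heme synthesis, the lowest at 3.26. Of 6 hematopoietic stem cell markers, 3 were tested and all 3 were higher, of which 1 had a PBS mean of at least 10 and the other 2 had to be higher in the same way. The list had summed normalized counts of 16.98 to 23.4 in PBS and 397 to 486 in pIpC. Hlf (mean 17.9 in PBS and 354 in pIpC) was the largest part, so the sum mostly shows this gene. By log2 change Mecom was highest at 5.05 and Slamf1 lowest at 3.68. Hoxb5 of this list had no read in PBS. Of 5 leukemia and leukocyte genes, Mef2c (7.72) and Ptprc (1.02) were higher beside the lower Hoxa9, Hoxa10 and Meis1. Mef2c, with a PBS mean of 5.53, passed the filter only through the libraries labelled pIpC and so had to be higher. The sum of the 5 was 14617 to 17816 in PBS and 13368 to 15211 in pIpC. Ptprc, with means of 6337 in PBS and 12579 in pIpC, was its largest part, so the sum does not show the falls of Hoxa9, Hoxa10 and Meis1. The part of these cell types in the members' results was not tested.

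The members and the erythroid markers ranked the libraries labelled pIpC differently. As a percentage of each gene's mean over these 3 libraries, the 8 tested members had a median of 104 in replicate 1, 114 in replicate 2 and 80.9 in replicate 3. The 14 erythroid markers had medians of 108, 77.8 and 109. Of the 8 members, 7 were lowest in replicate 3, Gp1ba being lowest in replicate 1, while 12 of 14 erythroid markers were lowest in replicate 2. These genes were measured in the same 3 libraries, so these counts describe the libraries and were not tested.

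**Figure D5:**
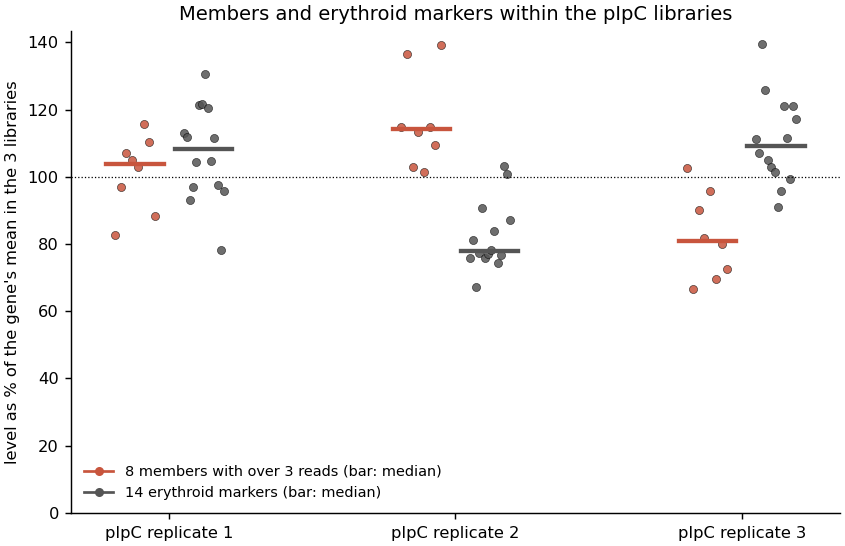
Each point is 1 gene's level in 1 library labelled pIpC as a percentage of its mean over the 3, with red for the 8 members and grey for the 14 erythroid markers, and a bar for the median. The members' median is lowest in replicate 3, at 80.9, and that of the erythroid markers in replicate 2, at 77.8.

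The 3 genes outside the members whose profile over the 6 libraries was nearest to the mean profile of the 8 tested members were C9orf72, Hpse and Basp1. The root mean square difference of their centred log2 values was 0.13, 0.15 and 0.17. That mean profile averages log2 changes from 1.08 to 8.28, among them those of Pf4, Ppbp and Gp6, which had to differ. The 3 genes had log2 changes of 3.51, 3.97 and 3.65, so they lie near this average and not near each member. C9orf72, a gene of membrane traffic, had normalized counts of 12.02 ± 2.59 in PBS and 146 ± 16.2 in pIpC (SD, n = 3). Hpse, which encodes heparanase, had 53.4 ± 5.16 and 853 ± 102 (SD, n = 3). Basp1, which encodes a membrane-attached signal protein, had 14.6 ± 3.15 and 194 ± 20.4 (SD, n = 3).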

How the data were processed

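RNA of 6 bone marrow samples, 3 PBS and 3 pIpC, was poly(A)-selected and sequenced. The sources differ: the labels give GFP+ cells, unstranded libraries, irradiation in 2 fractions of 450 cGy and, in the submitters' processing notes, GRCm38, HISAT2 2.2.1, SAMtools, featureCounts from Subread and edgeR, whereas the paper gives c-Kit+ cells, stranded libraries, lower irradiation, STAR with RSEM, and DESeq2. The authors deposited 1 table of normalized gene counts, treated here as a signal. Dividing a library's values by that of its lowest step gave whole reads for 100% of values above 0 (within 0.01 read).

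Genes with a mean of at least 10 were compared on log2(normalized count + 1) by limma 3.58.1 in R 4.3.3, with its intensity trend, without a replicate block, at a Benjamini-Hochberg adjusted p under 0.1 over all genes tested. Fold changes of low genes are understated on this scale. A group at 0 was set to a floor of 3 reads per library, and 95% intervals of read ratios are exact and cover counting error only. Depth gives these floors as 2.60 to 3.40 normalized counts. Positions and exon lengths came from GENCODE M21, and motif searches and permutation tests ran in Python 3.11.15. The scripts were tested on simulated data.

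The members and lists were chosen with earlier results of these data known, so no list was tested as a set. By rule the text names the members, Brd9, Gp5, Fcer1g, Itgav, Gata1, Gata2, Nfe2, Cxcl5, each list's highest and lowest tested gene and the 3 nearest profiles, except 1 gene that is not reported here. All other genes were named after their values were seen. The 6 related gene lists and 6 marker lists came from general knowledge, and Ahsp matched no symbol. Alternatives were pseudocounts of 0.1 and 10, a minimum mean of 50 or none, quantile or TMM normalization, no intensity trend, edgeR 4.0.16 and DESeq2 1.42.0 on recovered reads, adjusted p under 0.05, a replicate block, and each library left out. Brd9 alleles, values per exon and protein sequences were not analysed here.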

Additional observations from a re-analysis of the deposited data

How the results depend on the processing

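Of 135 comparisons of the 8 tested members with 17 alternatives, 135 kept their direction and their side of the threshold. These include 17 each for Pf4 and Ppbp and 16 for Gp6, genes that had to differ, so those comparisons add no support. The rest were those of Itga2b, Itgb3, Gp1ba, Gp9 and Vwf. The number of members higher was 8 in all alternatives except with a mean of at least 50, where Gp6 dropped out and 7 of 7 were higher. Log2 changes ranged from 0.92 to 1.25 for Itga2b, 0.97 to 1.36 for Itgb3, 1.16 to 1.68 for Gp1ba, 1.38 to 2.13 for Gp9, 3.53 to 4.53 for Vwf, 5.04 to 8.55 for Pf4, 4.998 to 11.6 for Ppbp and 1.77 to 7.89 for Gp6. The highest adjusted p was 0.0704, for Gp1ba. The number of genes changed, 6808, was 4650 to 9783 with a library left out, 6901 with edgeR and 7451 with DESeq2. Among 758 comparisons of 45 of the other named genes, 728 held, 16 lost the call, 9 gained one and 5 reversed. Reversals were those of Fcer1g without PBS replicate 1 (-0.0064) or 2 (-0.013), of Nfe2 and of Cpa3. With a library left out Fcer1g ranged from -0.013 to 0.52, Nfe2 from -0.25 to 0.20 and Cpa3 from -0.32 to 0.37. The cause was not tested.

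Deviations of same-numbered libraries from their group means correlated at -0.117, 0.143 and 0.041. With 3 libraries a group, these values cannot decide whether the numbers mark pairs. Under the replicate block 6095 genes changed, all 8 tested members were higher, and Gp9 had an adjusted p of 0.0306. Gp6 and Cxcl5 are limited by few reads, Gp1bb by exons shared with other genes, and 3 libraries a group limit every interval.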
